A study of Arabidopsis thaliana with 28 samples.

Results

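The 10 stomatal lineage genes examined here were TMM, SPCH, MUTE, FAMA, EPF1, EPF2, SDD1, ER, ERL1 and BASL. They were chosen by name for their known roles in making stomata and not for their values, though earlier results of these data were known. All 10 were found among the 23681 loci of the deposited table, and all 10 passed the filter on low values, which kept 21023 loci. Stomata are the adjustable pores of the plant epidermis, and each is built by a short lineage of divisions that starts in a protodermal cell and ends in a pair of guard cells. The bHLH transcription factors SPCH, MUTE and FAMA act in turn along this lineage, to start it, to end its stem-cell-like divisions and to complete guard cell differentiation. Secreted EPF peptides, read by the ER-family kinases together with TMM, limit how many cells enter the lineage and keep stomata apart, and the hormone abscisic acid (ABA) is known to restrain stomatal development in Arabidopsis leaves.

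RNA came from whole Arabidopsis thaliana seedlings that had spent 7 days on plates and then 3 h in liquid MS medium; the age label, 10 days from germination, does not match that count and the mismatch is unresolved. The plants were the wild type Col-0 and the ABA-deficient mutant aba2-1, each in mock, 10 nM or 50 nM ABA, and 4 lines carrying what the labels call a CA form of the ABA receptors PYL4, PYL5, PYL6 or PYR1, given mock only. The labels call all plants, Col-0 included, T3, and the genetic background, promoter and number of independent transformants of the CA lines are not given in the sources used here. Of the 10 groups, Col-0 in mock and Col-0 at 10 nM had 2 libraries and the other 8 had 3, giving 28 libraries, with 11989417 to 30942766 reads; nothing in the labels says that replicates were separate cultures, so p-values measure the spread between libraries, which may be technical.

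The ABA response gene RAB18, a dehydrin, rose in all 4 treated groups against their own mock, by a log2 difference of 4.06 in Col-0 at 50 nM (adjusted p = 9.2e-09, limma) and 3.82 in aba2-1 at 10 nM (adjusted p = 3.1e-09, limma). The receptor reads, transgene row included, averaged 11210, 15340 and 8174 in PYL4 CA, PYL5 CA and PYL6 CA, above every Col-0 mock and aba2-1 mock library. PYR1 reads averaged 1022 in the libraries labelled PYR1 CA, below the 2538 of aba2-1 mock and the 3172 of Col-0 mock, so this label was not borne out by its receptor. RAB18 was called higher than in aba2-1 mock in PYL4 CA, PYL6 CA and the libraries labelled PYR1 CA. The adjusted p was 9.6e-06, 0.01 and 0.0073 (limma), and PYL5 CA was not called. RAB18 read 69.88 to 103.5, 45.57 to 48.36 and 38.02 to 54.17 in those groups. It read 28.21 to 39.47 in PYL5 CA, 13.49 to 18.1 in aba2-1 mock and 16.42 to 32.06 in Col-0 mock. Against Col-0 mock only PYL4 CA was called (adjusted p = 0.0017, limma). The 3 libraries least like the rest over all genes tested were aba2-1 50 nM ABA replicate 2, aba2-1 10 nM ABA replicate 3, in which the ribosomal RNA locus AT3G41768 took 35.1% of the reads, and PYL5 CA replicate 3. The last of these and aba2-1 50 nM ABA replicate 1, which was kept, had the same median correlation with the other libraries to 4 decimals, 0.9643, so the line drawn after the third is narrow. The tissue was whole seedlings, and all 10 guard cell markers, all 6 epidermal markers and all 8 root markers examined had reads in every library.

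The genes lie on 4 of the 5 chromosomes, and the windows of 250 bases just upstream of 4 of them are printed here, because these 4 carry the results that follow and differ in E-boxes, the motif class that bHLH factors bind. Sequences are from the RefSeq TAIR10.1 genome, written 5′ to 3′ on the gene's strand and ending at the base before the annotated start; capitals mark E-boxes (CANNTG).

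EPF2 (AT1G34245, plus strand, upstream window chr1:12472618-12472867): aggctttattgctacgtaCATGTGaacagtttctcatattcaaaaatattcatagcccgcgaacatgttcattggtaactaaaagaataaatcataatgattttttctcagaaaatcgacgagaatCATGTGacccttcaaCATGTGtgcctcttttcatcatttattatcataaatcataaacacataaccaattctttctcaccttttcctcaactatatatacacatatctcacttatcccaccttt
FAMA (AT3G24140, minus strand, upstream window chr3:8718212-8718461): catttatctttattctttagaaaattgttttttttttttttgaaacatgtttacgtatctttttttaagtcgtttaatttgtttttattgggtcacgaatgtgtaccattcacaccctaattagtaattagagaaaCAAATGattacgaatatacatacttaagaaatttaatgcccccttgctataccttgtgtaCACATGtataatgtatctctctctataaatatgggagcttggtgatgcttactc
SPCH (AT5G53210, minus strand, upstream window chr5:21589256-21589505): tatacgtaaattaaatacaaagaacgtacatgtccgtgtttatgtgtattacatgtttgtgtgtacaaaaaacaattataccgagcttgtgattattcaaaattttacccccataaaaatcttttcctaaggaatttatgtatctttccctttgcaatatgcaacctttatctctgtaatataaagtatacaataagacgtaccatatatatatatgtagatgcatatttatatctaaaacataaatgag
TMM (AT1G80080, minus strand, upstream window chr1:30129650-30129899): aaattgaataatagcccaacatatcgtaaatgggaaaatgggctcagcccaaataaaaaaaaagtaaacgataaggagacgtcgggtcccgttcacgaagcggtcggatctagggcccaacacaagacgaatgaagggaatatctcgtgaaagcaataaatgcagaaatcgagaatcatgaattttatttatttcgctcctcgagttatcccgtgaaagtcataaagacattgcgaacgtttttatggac

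EPF2 had 3 E-boxes, whose first bases lay 232, 124 and 109 bases before the start, and all 3 read CATGTG. FAMA had 2, at 114 and 54 bases before the start, and the nearer was CATGTG on the opposite strand. The windows of SPCH and TMM held none. Over all 10 genes, 6 windows held an E-box, against 55.3% of 27443 gene windows of the same length, and 4 (EPF1, EPF2, FAMA and BASL) held CATGTG on either strand, against 11.1% of all windows. The core of the ABA response element, ACGTG on either strand, was in 3 windows (MUTE, ER and ERL1), against 22.9% of all windows, and the G-box CACGTG, which holds ACGTG and is itself an E-box, was in 0 of 10, against 6.5%. These matches describe letters in the windows only, and binding was not measured.

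Per kilobase of transcript, the mean level over the 28 libraries was highest for the receptor kinase ER, at 236.4 normalised reads, and the receptor-like protein TMM, at 202.2. The bHLH factor FAMA followed at 172.6 per kilobase, SPCH at 98.57 and the subtilisin-like protease SDD1 at 67.64. The peptide EPF2, which limits entry into the lineage, stood at 45.02 per kilobase, the polarity protein BASL at 27.37, the peptide EPF1, which orients later divisions, at 19.85, the receptor kinase ERL1 at 18.02 and MUTE at 16.55. The rarest were thinly sampled: MUTE had 5 to 28 reads in a library and EPF1 3 to 41, against 239 to 1533 for ER. ERL1 overlaps AT5G62240 on the opposite strand; the library kit keeps strand but strand use in counting is not given in the sources used here, so its level is uncertain.

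**Figure D1:**
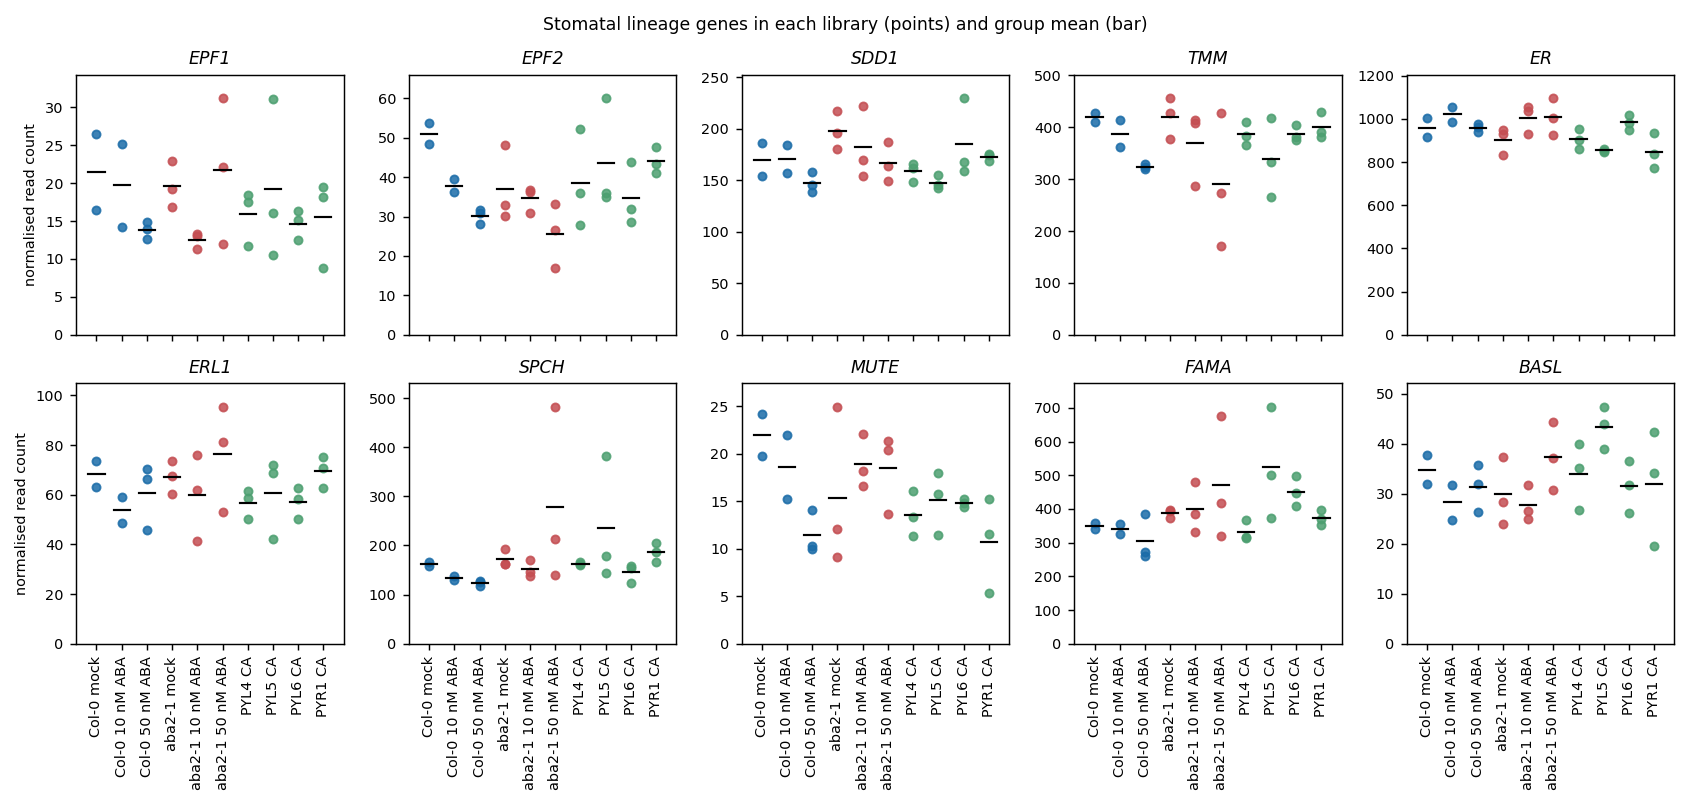
Normalised read count (vertical axis, from 0, a separate scale for each gene) of the 10 genes in each of the 10 groups (horizontal axis); points are libraries, bars are group means, blue is Col-0, red aba2-1 and green the CA lines. ER stayed between 772.8 and 1096 in all libraries, while SPCH reached 481.8 and 382.4 in 1 library each of aba2-1 50 nM ABA and PYL5 CA.

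Across the 28 libraries the highest value of ER was 1.42 times the lowest and that of SDD1 1.66 times, while the ratio was 4.11 for SPCH and 4.69 for MUTE. When the 10 groups were ranked by mean, neighbouring groups overlapped in all 9 steps for 8 of the genes. The exceptions were EPF2, where Col-0 mock stood above the next group, PYR1 CA, without overlap, and SPCH, where Col-0 10 nM ABA stood above the lowest group, Col-0 50 nM ABA. No gene of the 10 differed among the 10 groups by limma's F test after adjustment over all genes, where 22.6% of genes tested did; the smallest adjusted p was 0.15, for FAMA and ER. In the matching tests edgeR called 0 of the 10 and DESeq2 called 3. The 22.6% is limma's, and no share of all genes is printed for those methods, so the 3 have no background beside them.

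In Col-0, the question was whether 3 h of ABA at low doses moved the lineage genes in plants with their own ABA. At 50 nM all 10 estimates lay below 0, ER by less than could be shown at 2 decimals (mean 958.8 against 960.2), but no gene passed the test. Fitted log2 differences had a median of -0.29 for the 10 genes, against -0.01 for all genes tested, of which 51.5% lay below 0. The share of genes called in this comparison was 1.01%. At an unadjusted p under 0.05 limma picked 2 of the 10, EPF2 and MUTE, and 9.44% of all genes; edgeR and DESeq2 called 0 of the 10.

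EPF2 had normalised counts of 48.31 and 53.75 in mock, 36.15 and 39.46 at 10 nM and 31.76, 28.1 and 30.88 at 50 nM. The 3 dose groups did not overlap, and the order ran from mock down to 50 nM. The log2 difference at 50 nM was -0.74 (SE 0.29, 95% interval -1.33 to -0.14; adjusted p = 0.32, limma). TMM read 410.6 and 428.1 in mock, 362.5 and 413.2 at 10 nM, and 322.6, 318.7 and 329.4 at 50 nM. All 3 libraries at 50 nM lay below all 4 others, whereas mock and 10 nM overlapped; the log2 difference at 50 nM was -0.37 (SE 0.23, interval -0.85 to 0.11; adjusted p = 0.76, limma).

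SPCH read 167.1 and 158.4 in mock, 130.3 and 137 at 10 nM, and 117.1, 128.2 and 124.7 at 50 nM. Again the 3 groups did not overlap, and mock was highest. The log2 difference at 50 nM was -0.40 (SE 0.34, interval -1.09 to 0.30; adjusted p = 0.93, limma), with an SE set by a fit whose spread comes from all 10 groups. MUTE read 24.15 and 19.8 in mock, 15.22 and 21.92 at 10 nM, and 9.926, 14.05 and 10.29 at 50 nM. The 50 nM libraries were all below the others; the log2 difference was -0.90 (SE 0.38, interval -1.68 to -0.11; adjusted p = 0.39, limma). EPF1 read 16.42 and 26.4 in mock against 13.9, 14.93 and 12.58 at 50 nM, without overlap, and its log2 difference was -0.57 (SE 0.41; adjusted p = 0.86, limma).

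These 5 genes, TMM, SPCH, MUTE, EPF1 and EPF2, were lower at 50 nM than in mock without overlap, where 16.8% of all genes tested were, and no lineage gene was higher without overlap, against 17.8% of genes. At 10 nM, 4 lay below mock without overlap (SPCH, EPF2, ERL1 and BASL), against 24% of genes, and 0 were called, against 0.0285%, nor had any an unadjusted p under 0.05 (3.89% of genes did). Between the doses, 5 (TMM, SPCH, MUTE, EPF2 and ER) were lower at 50 than at 10 nM without overlap, against 14.1%, and 0 genes of the whole table were called (0%); 3.63% had an unadjusted p under 0.05, but 0 of the 10. The 10 nM and 50 nM comparisons share the same 2 mock libraries, so they are not separate evidence. Group means stepped down from mock through 10 to 50 nM in 6 of the 10 genes (TMM, SPCH, MUTE, FAMA, EPF1 and EPF2), and in 19.8% of all genes tested.

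The genes that did not follow this order were SDD1, with means of 170.1, 170.6 and 147.3 in mock, 10 nM and 50 nM, ER with 960.2, 1022 and 958.8, ERL1 with 68.3, 53.86 and 60.83, and BASL with 34.8, 28.26 and 31.37. Summed levels of 5 mesophyll markers moved alongside: 738100 to 780400 normalised reads in the mock libraries, 689700 to 691400 at 10 nM and 589700 to 664000 at 50 nM. None of the 5 was called at 50 nM, and their part in the values of the lineage genes was not tested. The 7 markers of dividing cells, by contrast, summed to 2086 to 2116 in mock and 1767 to 2255 at 50 nM, which overlap. The 10 guard cell markers summed to 17880 and 20670 in mock and 14520 to 18760 at 50 nM, which overlap. TGG1, averaging 15470 over the 28 libraries, made up most of each sum. Weighing the 10 alike, their mean log2 deviation from each marker's own mean over the 28 libraries did not overlap. It was -0.04 and -0.07 in mock and -0.37 to -0.17 at 50 nM. Their median log2 difference was -0.25, limma called 0 of them and 2 had an unadjusted p under 0.05; their part was not tested either. In whole-seedling RNA, fewer lineage cells and less RNA per lineage cell cannot be told apart.

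**Figure D2:**
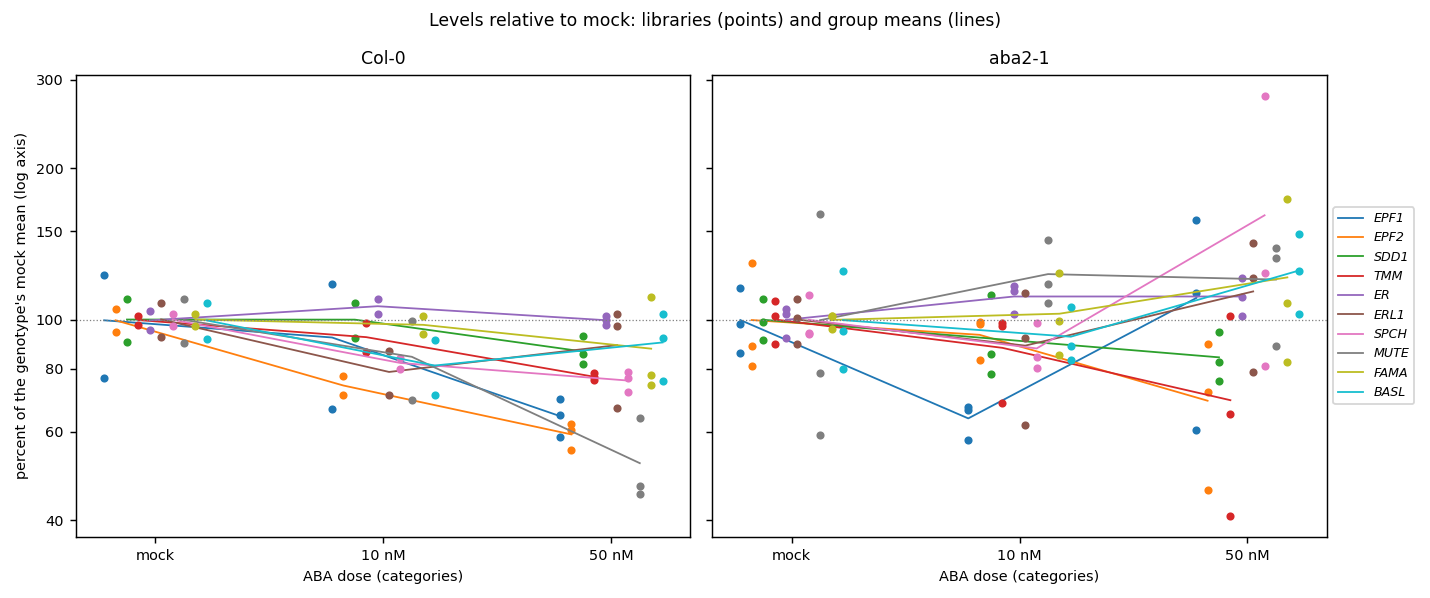
Level of each gene as a percentage of its genotype's mock mean (vertical log axis) in mock, 10 nM and 50 nM ABA (horizontal axis, categories) for Col-0 and aba2-1; points are libraries and lines join group means. In Col-0 the EPF2, TMM, SPCH, MUTE and EPF1 libraries at 50 nM all sit below both mock libraries. In aba2-1 the 50 nM libraries of TMM, SPCH, MUTE, FAMA, EPF1 and ERL1 lie on either side of the mock mean. Those of EPF2 and SDD1 all lie below that mean, and those of ER and BASL all above it.

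In aba2-1, whose seedlings make little ABA of their own, 50 nM ABA was accompanied by lower TMM, and no other lineage gene passed the test. TMM read 376.8, 427.2 and 456 in mock, 408.8, 413.6 and 286.9 at 10 nM, and 273, 172 and 428.1 at 50 nM. Of the 50 nM libraries, replicates 1 and 2 lay below all mock libraries and replicate 3 lay among them. The log2 difference was -0.62 (SE 0.21, n = 3 and 3; adjusted p = 0.034, limma), a ratio of 0.65, in a comparison where 24.8% of genes tested were called, 12.1% as lower. Without replicate 2 of aba2-1 50 nM ABA it was -0.29 (adjusted p = 0.33, limma), and without the 3 libraries that stood apart also -0.29 (adjusted p = 0.17, limma). The call was also absent by edgeR (adjusted p = 0.069), DESeq2 (adjusted p = 0.052) and limma on these 2 groups alone (adjusted p = 0.3), and when aba2-1 mock replicate 2 or 3 or aba2-1 50 nM ABA replicate 1 was left out (adjusted p = 0.081, 0.1 and 0.066, limma).

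Mesophyll markers again lay low in the same libraries. The 5 summed to 592800, 401500 and 815700 in aba2-1 50 nM ABA replicates 1, 2 and 3, the order in which TMM stood, and to 695700 to 780300 in aba2-1 mock. Of the 5, 1 was called higher (CA1, a carbonic anhydrase) and 1 lower (RCA, Rubisco activase, log2 difference -0.66, adjusted p = 0.017, limma); without replicate 2 neither was called. Their part in the TMM value was not tested.

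No lineage gene separated aba2-1 50 nM ABA from aba2-1 mock without overlap, where 14.5% of all genes were lower and 14.4% higher. The median over the 10 was 0.15, against 0.00 for all genes, with 3 estimates below 0 and 7 above. EPF2 read 30.1, 48.27 and 32.9 in mock and 33.27, 17.03 and 26.61 at 50 nM; its log2 difference was -0.54 (SE 0.26; adjusted p = 0.12, limma), and the groups overlapped. Without replicate 2 it was -0.28. SPCH read 161.9, 162.9 and 192.8 in mock and 213.3, 481.8 and 139.9 at 50 nM, with 1 library below all mock libraries and 2 above them; the log2 difference was 0.50 (SE 0.30; adjusted p = 0.22, limma). Without replicate 2, at 481.8, it was 0.01. Against 10 nM, where 11.6% of genes were called, 0 lineage genes passed with limma, edgeR or DESeq2, and 1, SPCH, had an unadjusted p under 0.05 (log2 difference 0.68, SE 0.30; adjusted p = 0.12, limma). It became 0.19 without replicate 2 and 0.17 without the 3 libraries that stood apart.

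At 10 nM in aba2-1, 0 lineage genes were called against mock by limma, edgeR or DESeq2 (limma called 0.975% of genes), and 0 had an unadjusted p under 0.05, against 7.85% of genes. EPF1 alone stood apart from mock, at 11.36, 13.03 and 13.24 against 22.84, 16.9 and 19.28, which 7.05% of all genes did in that direction. These values rest on only 10, 11 and 3 reads against 22, 14 and 17. The 10 nM libraries were all lower; the log2 difference was -0.60 (SE 0.37; adjusted p = 0.81, limma). At 50 nM EPF1 read 22.18, 11.92 and 31.18, spanning the mock range.

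Between genotypes, SPCH was higher in aba2-1 than in Col-0 at 50 nM ABA. The values given above were 213.3, 481.8 and 139.9 in aba2-1 and 117.1, 128.2 and 124.7 in Col-0, and the groups did not overlap, which held for 13.8% of all genes in that direction. The log2 difference was 0.98 (SE 0.30, interval 0.35 to 1.60; adjusted p = 0.026, limma), a ratio of 1.97, where 21.1% of genes were called, 10.6% as higher. Without aba2-1 50 nM ABA replicate 2 it was 0.48 (adjusted p = 0.24, limma) and, without all 3 libraries that stood apart, 0.48 (adjusted p = 0.043, limma). The call was lost when any 1 Col-0 50 nM ABA library was left out (adjusted p = 0.076, 0.067 and 0.051, limma) and in a fit of these 2 groups alone (adjusted p = 0.27, limma).

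FAMA read 418, 675.9 and 319.4 in aba2-1 at 50 nM and 271, 259 and 385.4 in Col-0. The groups overlapped, and the log2 difference of 0.58 (SE 0.22) had an adjusted p = 0.058 with limma, 0.048 with edgeR and 0.032 with DESeq2. Without the 3 libraries that stood apart it was 0.28 (adjusted p = 0.24, limma). For MUTE, at 13.65, 20.43 and 21.29 in aba2-1 and 9.926, 14.05 and 10.29 in Col-0, the groups overlapped narrowly and the log2 difference was 0.64 (SE 0.34; adjusted p = 0.18, limma).

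Whether the response to 50 nM ABA differed between genotypes was tested as an interaction, for which limma called 2.05% of all genes and 0 of the 10; edgeR and DESeq2 also called 0 of the 10, and 1 of them, MUTE, had an unadjusted limma p under 0.05, against 18.1% of genes. The largest estimates were those of MUTE (1.24, SE 0.51; adjusted p = 0.21, limma) and SPCH (0.90, SE 0.45; adjusted p = 0.29, limma), both toward higher values in aba2-1. Without aba2-1 50 nM ABA replicate 2 they were 1.16 and 0.40. For TMM and EPF2 the interactions were -0.25 (SE 0.31) and 0.20 (SE 0.39), or 0.08 and 0.46 without that library, so a different response of these genes in the 2 genotypes was not detectable with these libraries. At 10 nM 0 genes of the table were called for the interaction (0%), with 3.11% at an unadjusted p under 0.05 and 0 of the 10.

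In mock, 0 of the 10 were called between aba2-1 and Col-0, where 0.59% of genes were, and 0 had an unadjusted p under 0.05, against 7.93% of genes. EPF2 was lower in aba2-1 without overlap (30.1, 48.27 and 32.9 against 48.31 and 53.75; 15.6% of genes), its highest library just under the lower Col-0 value; the log2 difference was -0.48 (SE 0.29; adjusted p = 0.81, limma). FAMA was higher without overlap (396.5, 393.4 and 372.1 against 357.5 and 339.5; 16.2% of genes), with a log2 difference of 0.15 (SE 0.24; adjusted p = 1, limma). At 10 nM, 0 were called (0.328% of genes); EPF1 was lower in aba2-1 without overlap (14.6% of genes) and SPCH higher (14.9%).

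**Figure D3:**
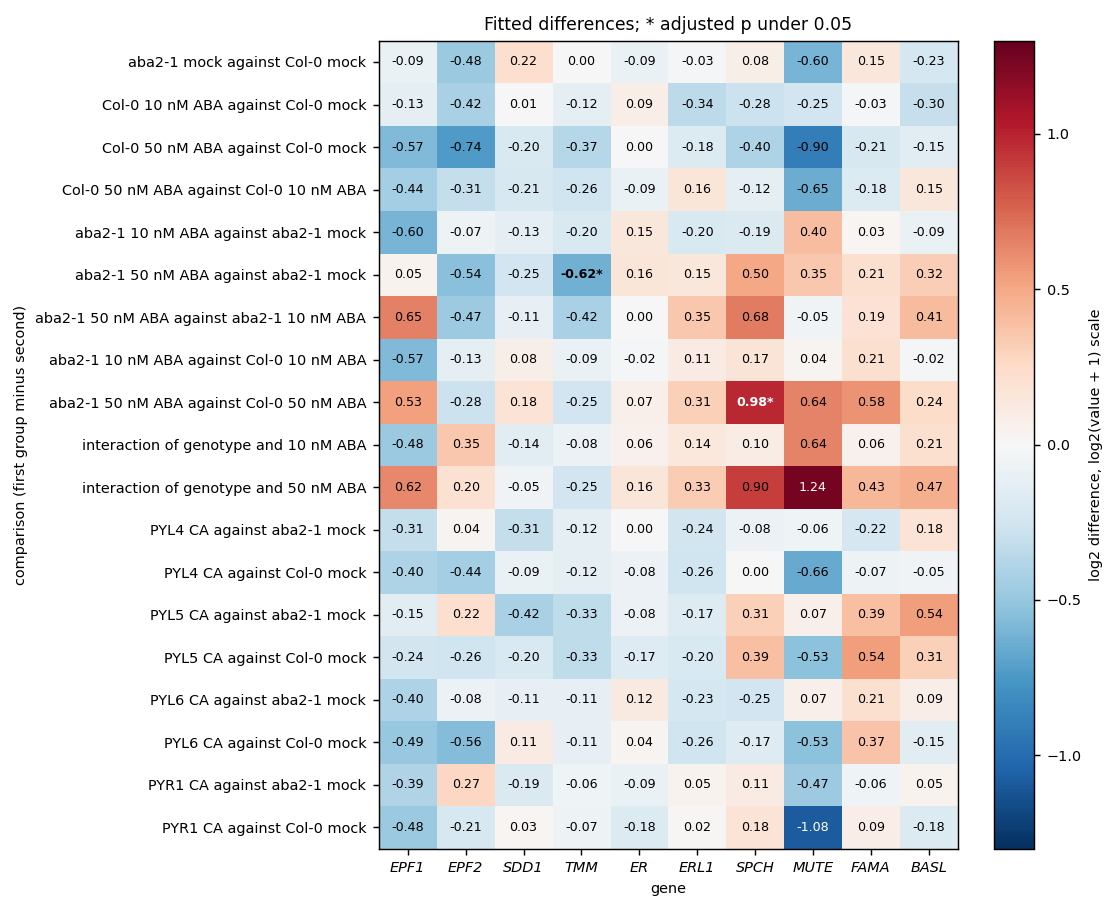
Fitted log2 differences (colour and number; red, higher in the group named first; blue, lower) of the 10 genes (columns) in the 19 comparisons (rows), on the log2(value + 1) scale; an asterisk marks an adjusted p under 0.05. Asterisks stand at TMM in aba2-1 50 nM ABA against aba2-1 mock (-0.62) and at SPCH in aba2-1 against Col-0 at 50 nM (0.98).

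The CA lines were given mock only, and each was set against Col-0 mock and aba2-1 mock. None of the 10 was called by limma, edgeR or DESeq2 in any of the 4 lines, against either mock group. At an unadjusted p under 0.05 limma picked SDD1 in PYL4 CA and SDD1 and BASL in PYL5 CA against aba2-1 mock, and FAMA in PYL5 CA and MUTE in the libraries labelled PYR1 CA against Col-0 mock. These are 1 or 2 of 10 where 12.34%, 15.75%, 17.01% and 13.73% of all genes had such a p in the same order of comparisons, close to the background. After adjustment, the shares of genes called against Col-0 mock were 1.44% in PYL4 CA, 1.59% in PYL5 CA, 0.157% in PYL6 CA and 2.81% in the libraries labelled PYR1 CA, and against aba2-1 mock 2.48%, 0.157%, 0.119% and 1.15% in the same order. All 4 lines share each control group, so their values stand side by side and do not add up.

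FAMA differed most among the lines (F test, adjusted p = 0.26, limma; 3.36% of genes called, 0 of the 10). It read 316.5, 314.5 and 366.4 in PYL4 CA, 500.9, 372.1 and 702.6 in PYL5 CA, 447.9, 408 and 496.8 in PYL6 CA and 351.1, 396.1 and 369.5 in the libraries labelled PYR1 CA. All PYL5 CA and PYL6 CA libraries lay above both Col-0 mock libraries (357.5 and 339.5), as 16.1% and 20% of genes did, and all PYL6 CA libraries lay above all PYL4 CA libraries, as 14.7% of genes did. The 10 guard cell markers moved with FAMA among the lines. They summed to 18590 to 18950 in PYL5 CA and 18440 to 20240 in PYL6 CA. These sums lay above the 14750 to 16700 of PYL4 CA and the 15600 to 16280 of the libraries labelled PYR1 CA without overlap, and between the Col-0 mock sums of 17880 and 20670. TGG1, averaging 15470 over the 28 libraries, made up most of each sum. Weighing the 10 alike, their mean log2 deviation was 0.14 to 0.20 in PYL5 CA and 0.15 to 0.29 in PYL6 CA. These lay above PYL4 CA (-0.23 to -0.04), the libraries labelled PYR1 CA (0.01 to 0.08) and both Col-0 mock libraries (-0.04 and -0.07). Within PYL5 CA the orders differed, as replicate 2 had the lowest FAMA (372.1) and the highest marker deviation (0.20). The part of these markers in the FAMA values was not tested. Against Col-0 mock the log2 difference was 0.54 in PYL5 CA (SE 0.24; adjusted p = 0.26, limma), 0.31 without PYL5 CA replicate 3 and the other libraries that stood apart, and 0.37 in PYL6 CA (SE 0.24; adjusted p = 0.89, limma).

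BASL, which marks one side of the dividing precursor cell, read 38.88, 44.01 and 47.36 in PYL5 CA. These were above Col-0 mock (31.88 and 37.72) and aba2-1 mock (23.87, 37.41 and 28.36) without overlap, as were 16.1% and 8.99% of genes; the log2 differences were 0.31 (SE 0.28; adjusted p = 0.59, limma) and 0.54 (SE 0.25; adjusted p = 0.29, limma). SDD1 read 142.6, 155 and 145.6 in PYL5 CA against 180.6, 217.2 and 196.2 in aba2-1 mock, lower without overlap as were 7.91% of genes, with a log2 difference of -0.42 (SE 0.14; adjusted p = 0.21, limma). SDD1 also lay below aba2-1 mock without overlap in PYL4 CA (162.4, 148.6 and 165.6; 12.4% of genes) and in the libraries labelled PYR1 CA (175.9, 174.2 and 168.6; 13.2%). The other genes that stood below aba2-1 mock without overlap were FAMA in PYL4 CA and SPCH and EPF1 in PYL6 CA (8.5%), and FAMA was higher in PYL6 CA (7.3%).

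MUTE was below Col-0 mock (24.15 and 19.8) without overlap in all 4 lines. It read 11.3, 13.32 and 16.12 in PYL4 CA, 11.44, 18.01 and 15.79 in PYL5 CA, 14.86, 14.36 and 15.19 in PYL6 CA, and 5.308, 11.5 and 15.22 in the libraries labelled PYR1 CA. The 12 values lay inside the aba2-1 mock range of 9.075 to 24.91, except the 5.308 of 1 library labelled PYR1 CA. The log2 differences against Col-0 mock were -0.66, -0.53, -0.53 and -1.08 (SE 0.38 each; adjusted p = 0.55, 0.49, 0.91 and 0.14, limma), and these rest on 2 Col-0 libraries with few reads.

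PYL6 CA had the most lineage genes below Col-0 mock without overlap, 6 of 10 (TMM, SPCH, MUTE, EPF1, EPF2 and ERL1), where 19.2% of genes were, and FAMA was above it, as were 20% of genes. The count was 3 in PYL4 CA (TMM, MUTE and ERL1; 22% of genes), 2 in PYL5 CA (MUTE and ER; 15.1%) and 2 in the libraries labelled PYR1 CA (MUTE and EPF2; 24%). For EPF2 in PYL6 CA, at 31.84, 43.82 and 28.59 against 48.31 and 53.75, the log2 difference was -0.56 (SE 0.29; adjusted p = 0.75, limma). In TMM the 4 lines differed from Col-0 mock by -0.12, -0.33, -0.11 and -0.07, in the order PYL4, PYL5, PYL6 and PYR1 CA.

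Among the 10 genes, the clearest joint pattern came from 2 libraries. In aba2-1 50 nM ABA replicate 2 and PYL5 CA replicate 3, SPCH was 481.8 and 382.4, against 117.1 to 213.3 in the 25 libraries that did not stand apart, and FAMA was 675.9 and 702.6, against 259 to 500.9. TMM was 172 and 264.9 in the same libraries, against 273 to 456, so that SPCH over TMM was 2.8 and 1.44, against 0.327 to 0.781 in all others. The values of the 25 nearest to these came from 1 other replicate of each group. Replicate 1 of aba2-1 50 nM ABA had their highest SPCH (213.3), lowest TMM (273) and highest ratio (0.781), and PYL5 CA replicate 1 their highest FAMA (500.9). The remaining replicates did not share the pattern. The ratio was 0.327 in aba2-1 50 nM ABA replicate 3, the lowest of all 28 libraries, and 0.342 in PYL5 CA replicate 2. BASL was also above the 25 in both, at 44.27 and 47.36 against 19.48 to 44.01, while MUTE, at 20.43 and 15.79, lay within them. In aba2-1 50 nM ABA replicate 2 alone, EPF2 (17.03, against 26.61 to 60.02) was lowest and ERL1 (95.34, against 41.47 to 81.36) highest. The same libraries had the lowest mesophyll sums, 401500 and 463300. The 6 epidermal markers summed to 24420 and 17960, where the other replicates of their groups gave 14610 and 15930 and 12260 and 15650. Of the 6, PDF1 had the widest range over the 28 libraries, 3149 to 14350. Weighing the 6 alike, their mean log2 deviation was 0.21 and 0.12, where those other replicates gave 0.03 and 0.04 and -0.41 and 0.13. In these 2 libraries the mesophyll sums and TMM were lowest and SPCH and FAMA highest. The epidermal deviation was 0.12 in PYL5 CA replicate 3 and 0.13 in replicate 1. The part of either list in the lineage values was not tested.

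**Figure D4:**
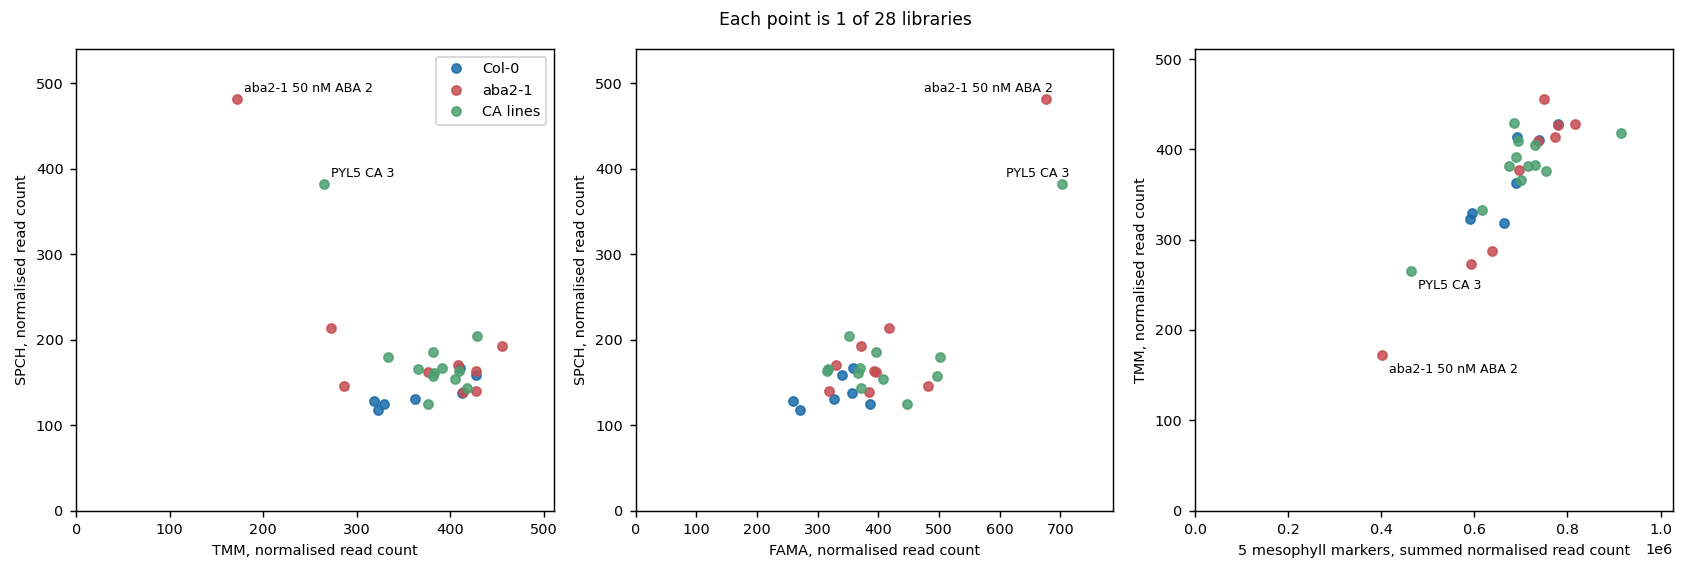
SPCH against TMM, SPCH against FAMA, and TMM against the summed level of 5 mesophyll markers, as normalised read counts on linear axes from 0; each point is 1 of 28 libraries, blue Col-0, red aba2-1, green CA lines. The labelled libraries, aba2-1 50 nM ABA replicate 2 and PYL5 CA replicate 3, hold the 2 highest SPCH and FAMA values and the 2 lowest TMM values and mesophyll sums.

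As a description across libraries, which share groups and scaling, SPCH and FAMA had a Pearson correlation of log2(value + 1) of 0.72 over 28 libraries and 0.34 over the 25. TMM and SPCH went from -0.63 to 0.12 when the 3 were left out, and TMM and FAMA from -0.59 to 0.00, so these relations rest on those libraries. TMM with EPF2 (0.65 and 0.45), TMM with SDD1 (0.51 and 0.53) and MUTE with ER (0.55 and 0.53) changed less. SPCH with MUTE had 0.02 and -0.27.

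The genes outside the set whose pattern was most like a member's were sought among the 17122 genes averaging 50 or more normalised reads. For TMM they were GAPB, FBA1 and RCA, genes of chloroplast carbon fixation, with r of 0.94 each over 28 libraries; RCA stayed at 0.91 over the 25. For SPCH they were SOS5, AT1G64330 and IQD1, at 0.91 each. These had 0.64, 0.64 and 0.69 over the 25, where GAE4, AT5G41400 and RAP2.7 stood first at 0.79, 0.79 and 0.78. For FAMA they were WRKY36 at 0.90, APL1, a subunit of the starch enzyme ADP-glucose pyrophosphorylase, at 0.89, and MYB60, a guard cell transcription factor, at 0.89; over the 25, SCAP1, a Dof factor of guard cell maturation, reached 0.83. The best match of EPF2 was RP1 at 0.79, of ER AT5G46420 at 0.79, of SDD1 MSRB6 at 0.71, of ERL1 DOF2.4 at 0.70, of EPF1 AT1G33810 at 0.67, of MUTE SKIP4 at 0.66 and of BASL AT3G17350 at 0.65. With 28 libraries and many genes, high values of this kind are found for many genes.

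Of 37 other genes of the stomatal pathway, 36 were tested; the cyclin gene CYCD7;1, whose highest value was 6.66, was not. None was called in Col-0 at either dose, in mock between genotypes or in a CA line against a mock group. In these comparisons 0.0285% to 2.81% of all genes were called, so the absence of calls did not stand out. In aba2-1 at 50 nM against mock, 7 were called higher and 3 lower, 10 of 36 where 24.8% of all genes were called. Without replicate 2 of aba2-1 50 nM ABA 1 was higher (CRSP) and 2 lower (MKK9 and AGL16), where 9.92% of genes were called. Calls over all genes thus fell too with fewer libraries. A lost call alone does not show that the difference came from that library. Without all 3 that stood apart 2 were higher (CRSP and SCRM) and 3 lower (MKK9, SERK2 and AGL16), where 13.8% were. SCRM, the bHLH partner of SPCH, MUTE and FAMA also known as ICE1, read 1109, 1539 and 1173 at 50 nM and 931.1, 1003 and 896.2 in mock. All 50 nM libraries were higher, and SCRM rose by a log2 difference of 0.42 (SE 0.11; adjusted p = 0.008, limma); its close relative SCRM2 rose by 0.51 (adjusted p = 0.032, limma). Without replicate 2 the differences were 0.27 (adjusted p = 0.075, limma) and 0.29 (adjusted p = 0.28, limma).

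The MAP kinase kinase gene MKK9 read 375.3, 403.5 and 480.6 at 50 nM against 628, 790.5 and 729.4 in aba2-1 mock. No library overlapped, and the log2 difference was -0.77 (SE 0.16; adjusted p = 0.0014, limma), or -0.75 without replicate 2 (adjusted p = 0.006, limma). The receptor-like kinases SERK2 and BAK1, which act beside the ER family, were lower too, SERK2 with a log2 difference of -0.63 (SE 0.15; adjusted p = 0.0055, limma) and BAK1 with -0.32 (SE 0.09; adjusted p = 0.017, limma). Without replicate 2 they were -0.45 and -0.27 (adjusted p = 0.053 and 0.08, limma). The remaining 5 that rose were SOL1, EPFL6, CRSP, BIN2 and ERL2, by log2 differences of 0.56, 0.71, 0.35, 0.32 and 0.36, and by 0.51, 0.56, 0.41, 0.19 and 0.27 without replicate 2, where only CRSP of the 5 was called.

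In aba2-1 against Col-0 at 50 nM, 5 of the 36 were higher and 2 lower, where 21.1% of all genes were called. Without aba2-1 50 nM ABA replicate 2 all 5 higher calls were lost and MKK9 alone was lower, where 9.96% of genes were called. Without the 3 libraries that stood apart 3 were higher and 3 lower, where 14% were called. SCAP1 read 214.1, 267.3 and 145.2 in aba2-1 and 110.2, 107.1 and 148.7 in Col-0, which overlap, with a log2 difference of 0.74 (SE 0.18; adjusted p = 0.0064, limma), or 0.54 without replicate 2 (adjusted p = 0.053, limma). SCRM (0.44, SE 0.11; adjusted p = 0.0068, limma) and BRXL2, a BASL partner (0.52, SE 0.14; adjusted p = 0.011, limma), were also higher, at 0.30 and 0.41 without replicate 2 (adjusted p = 0.052 and 0.073, limma), and MKK9 lower (-0.63, SE 0.16; adjusted p = 0.0078, limma). Of the 10 guard cell markers, 4 were higher in this comparison (ALMT12, SLAC1, MYB60 and KAT1) and 0 lower, against 1 (ALMT12) without replicate 2. The same aba2-1 libraries went both ways against aba2-1 mock. There 2 markers were higher (ALMT12 and SLAC1) and 2 lower (HT1 and GC1, log2 differences -1.04 and -1.44), where 24.8% of all genes were called. Against 10 nM, ALMT12 and SLAC1 were higher and HT1 lower. The list, mostly TGG1, summed to 16450 to 20720 in aba2-1 and 14520 to 18760 in Col-0, which overlap. Its mean log2 deviation was -0.10 to 0.30 in aba2-1 and -0.37 to -0.17 in Col-0, which do not. Against aba2-1 10 nM ABA, 3 of the 36 were higher at 50 nM and 2 lower, where 11.6% of all genes were called, and all 5 calls were lost without replicate 2. The lowest p belonged to MKK7 (log2 difference -1.35, SE 0.33; adjusted p = 0.015, limma), which had -1.28 without that library (adjusted p = 0.07, limma).

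CRSP, the secreted subtilase that processes the EPF2 peptide, differed among the 4 CA lines (F test, adjusted p = 0.0083, limma) and among all 10 groups (adjusted p = 0.00014, limma). Among the CA lines 1 of the 36 pathway genes was called, where 3.36% of all genes were. Among all groups 8 of the 36 were, where 22.6% of all genes were, so neither count stood out. CRSP read 279, 279.4 and 291.6 in the libraries labelled PYR1 CA, the lowest 3 of all 28. Its values were 374.4, 304.1 and 300 in PYL5 CA, 395.7, 466.2 and 386.2 in PYL4 CA and 467, 381.6 and 439.6 in PYL6 CA. In Col-0 it read 354.6 and 396.1 in mock and 497.6 and 514.1 at 10 nM. In aba2-1 it read 368.5, 391 and 372.1 in mock and 483.8, 510.7 and 463.4 at 10 nM. Treated libraries were higher than mock without overlap in both genotypes, but neither 10 nM comparison called it. The share of all genes higher without overlap is not printed here. In the lower direction it was 24% in Col-0 and 7.05% in aba2-1.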

How the data were processed

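The authors deposited 1 table of 23686 rows and 28 columns of gene-level signal, meaning reads rescaled by a single factor for every library: with the column's smallest step as 1 read, 100% of values came out whole within 0.01 read. The submitters' processing notes name Trimmomatic 0.38, Salmon 1.3.0 and edgeR 3.28.0 and the TAIR10 build, with no roles; the RNA was sequenced on a NextSeq 500 after a KAPA stranded kit, per the labels' protocols. The 5 rows without a locus were left out. Coordinates, names and upstream windows come from RefSeq TAIR10.1.

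Values were tested as log2(value + 1) with limma 3.58.1 (trend, robust) in 1 fit over all 10 groups, on the 21023 loci with a value of at least 10 in at least 2 libraries. Fold changes are on that scale, which understates low genes. P-values were Benjamini-Hochberg adjusted over these loci within each comparison, and an adjusted p under 0.05 is a call; intervals are 95%. The script was tested on simulated data. Replicates were compared by chi-square per degree of freedom, which ran from 5.352 to 991.487, so none was counted as a copy of another.

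Alternatives were a pseudocount of 5 or 0.5, no filter, edgeR 4.0.16 (quasi-likelihood, TMM) and DESeq2 1.42.0 on the recovered reads, sample weights (gene-by-gene method, since the default did not converge), a replicate block, the compared groups alone, leaving out each library, and leaving out the 3 libraries least correlated with the others, chosen after seeing the data, as was repeating the pathway gene counts without aba2-1 50 nM ABA replicate 2. On the recovered reads edgeR called 5131 and DESeq2 5616 genes in aba2-1 50 nM ABA against mock, where limma called 5210.

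The 10 genes, the other lists and the tests were chosen with earlier results of these data known. Named are all 10 members, up to 4 called pathway genes with the smallest p per comparison, the 3 genes most correlated with each member, and RAB18; the values of the markers, and of EPFL6, ERL2, BIN2 and others listed as called, were added after they were seen. Correlations and ratios carry no p.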

Additional observations from a re-analysis of the deposited data

How the results depend on the processing

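With a pseudocount of 5 or 0.5, or no filter, the counts of lineage genes called were those reported, and 0 of 190 estimates changed sign. The replicate block, tried although same-numbered libraries did not deviate together (median correlation 0.002, range -0.589 to 0.252), gave 1 call in aba2-1 50 nM ABA against aba2-1 mock and 1 against Col-0 50 nM ABA, 2 in all, as without it, and changed no call. In aba2-1 50 nM ABA against aba2-1 mock, edgeR, DESeq2, the compared groups alone and the fit without the 3 libraries that stood apart each called 0, and sample weights 2. Against Col-0 50 nM ABA, edgeR and DESeq2 called 2 each, sample weights 4 and the compared groups alone 0. Sample weights also called 2 in Col-0 50 nM ABA against mock, 4 in aba2-1 50 nM against 10 nM, 1 in the interaction at 50 nM, 1 each in PYL5 CA, PYL6 CA and PYR1 CA against Col-0 mock, 1 in the F test of the CA lines and 6 in that of all groups, where DESeq2 called 3; with these weights 10.8% of all genes were called in Col-0 at 50 nM, against 1.01%. Leaving out 1 library at a time gave 0 to 2 calls in aba2-1 50 nM against mock, 0 to 2 against 10 nM, 0 to 3 against Col-0 50 nM, 0 to 1 in the interaction at 50 nM and 0 to 3 in the F test of all groups; all the upper values came without aba2-1 50 nM ABA replicate 3. The TMM difference between aba2-1 and Col-0 at 50 nM, -0.25 as reported, turned to 0.08 without the 3 libraries and ran from -0.58 to 0.08 with 1 library left out; that of SDD1 between 50 and 10 nM in aba2-1, -0.11 as reported, ran from -0.22 to 0.04. The cause was not tested. Apart from sample weights in Col-0 at 50 nM, no share of all genes is printed beside the counts of calls in this section. Those counts are therefore not results about the lineage genes.

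MUTE and EPF1 had as few as 5 and 3 reads in a library, and Col-0 mock had 2 libraries, so small differences in them were not detectable. Where a group was left with 1 library, that library was assumed to vary like the other groups. Missing calls in Col-0 do not show that the genes did not respond.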
